A study of Mus musculus with 2 samples.

Results

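Interferon-stimulated genes are genes that cells switch on when an interferon binds its receptor. The set described here held 31 of the 47729 mouse genes listed in both count matrices. It was given as a list of gene names, of which 29 were found by symbol. Ifi209 and Ifi211 were found by Ensembl gene identifier under their older symbols Pyhin1 and Mnda. Levels were followed across cell types defined by marker genes and between the single library of each of the 2 culture conditions.

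The MSC coculture library held CD11bmid Ly6Cmid cells sorted from bone marrow of C57BL/6NCrljOri, H-2b mice. That marrow had been differentiated with GM-CSF at 40 ng/mL for 5 days, beside human mesenchymal stromal cells (MSC) kept in culture inserts listed as 0.4 μM, at 1 MSC to 5 marrow cells. The MSC had been incubated in the inserts for 24 hours beforehand. The no coculture library held CD11bhi Ly6Chi cells of the same strain given GM-CSF without MSC. The sort gate differs between the libraries, and the protocol names DMEM for coculture and RPMI1640 for marrow culture, so coculture, gate, medium and library cannot be told apart. The labels do not say how many animals gave each library. With 1 library per condition no difference has a replicate check, no test was possible, and every interval given here is a 95% interval for counting error only.

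Cells were kept when they had 500 genes or more and no more than 10% of UMIs from mitochondrial genes. The coculture library then had 3005 cells and 29089241 UMIs, and the no coculture library 1817 cells and 27784963 UMIs. A unique molecular identifier (UMI) marks 1 captured RNA molecule, and levels are UMIs per 1000000 UMIs (CPM) summed over the cells named. Median depth was 6031 UMIs per cell with coculture and 7016 without. Of all barcodes, 2.87% with coculture and 15.5% without exceeded the mitochondrial limit. The libraries shared 2 of the kept barcodes. The sort genes followed the gates, with Itgam, which encodes CD11b, at 144 CPM with coculture and 351 CPM without, and Ly6c2 at 96.9 and 344 CPM.

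Type I and type III interferons act through the kinases Jak1 and Tyk2 on a complex that includes Stat2 and Irf9 and binds interferon-sensitive response elements in promoters. Interferon gamma acts mainly at gamma-activated sites. The induced genes encode proteins that block viruses, sense foreign nucleic acid, raise further interferon or shut the pathway down. In bone marrow, interferon also acts on blood progenitors and on the formation of myeloid cells.

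RefSeq (GRCm38.p6) gave a promoter window for 25 of the 31 members. The 250 bases before the transcript start were searched for GAAANNGAAA on either strand, the core letters of the interferon-sensitive response element, and for TTCNNNGAA, which reads the same on both strands and is the core of the gamma-activated site. GAAANNGAAA was found in 13 of the 25 members (52%), against 936 of 27025 genes (3.46%). TTCNNNGAA was found in 5 of 25 members (20%), against 2197 genes (8.13%). A match is a description of the letters and not a bound site. The windows below belong to a selection of the 25 members, so matches among them do not stand for the whole set. They are written 5′ to 3′ along the gene with GAAANNGAAA, or TTTCNNTTTC where it lies on the other strand, in capitals.

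Isg15, chr4:156200819-156201068, minus strand: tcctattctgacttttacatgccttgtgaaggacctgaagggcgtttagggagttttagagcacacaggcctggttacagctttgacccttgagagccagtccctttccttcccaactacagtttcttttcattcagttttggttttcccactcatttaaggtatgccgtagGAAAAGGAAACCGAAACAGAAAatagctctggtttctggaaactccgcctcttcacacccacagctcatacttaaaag
Ifit1, chr19:34640639-34640888, plus strand: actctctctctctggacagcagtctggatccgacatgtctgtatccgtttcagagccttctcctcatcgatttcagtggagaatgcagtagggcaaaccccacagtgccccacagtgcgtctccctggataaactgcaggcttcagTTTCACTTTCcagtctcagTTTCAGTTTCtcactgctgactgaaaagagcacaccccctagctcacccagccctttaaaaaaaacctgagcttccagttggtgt
Rsad2, chr12:26456453-26456702, minus strand: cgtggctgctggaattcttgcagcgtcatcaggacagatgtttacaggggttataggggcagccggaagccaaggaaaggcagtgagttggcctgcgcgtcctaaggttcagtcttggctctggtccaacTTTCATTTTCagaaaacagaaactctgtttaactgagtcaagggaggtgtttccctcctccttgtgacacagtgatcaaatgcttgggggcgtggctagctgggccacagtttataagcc
Bst2, chr8:71537473-71537722, minus strand: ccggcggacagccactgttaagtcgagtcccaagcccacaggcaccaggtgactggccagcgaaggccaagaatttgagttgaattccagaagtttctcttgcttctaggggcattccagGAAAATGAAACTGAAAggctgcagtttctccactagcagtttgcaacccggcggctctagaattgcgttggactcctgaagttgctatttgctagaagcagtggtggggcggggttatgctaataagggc
Ifitm2, chr7:140955962-140956211, minus strand: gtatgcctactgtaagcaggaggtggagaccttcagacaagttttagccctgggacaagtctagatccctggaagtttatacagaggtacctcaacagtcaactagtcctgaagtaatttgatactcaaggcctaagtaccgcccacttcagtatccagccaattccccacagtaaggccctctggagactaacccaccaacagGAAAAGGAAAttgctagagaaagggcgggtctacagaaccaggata
Ifitm3, chr7:141010745-141010994, minus strand: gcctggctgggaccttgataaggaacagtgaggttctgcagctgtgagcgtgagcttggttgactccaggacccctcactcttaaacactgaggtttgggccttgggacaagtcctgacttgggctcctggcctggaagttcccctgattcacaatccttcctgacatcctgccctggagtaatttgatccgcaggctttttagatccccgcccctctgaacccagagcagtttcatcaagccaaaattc
Oasl1, chr5:114922990-114923239, plus strand: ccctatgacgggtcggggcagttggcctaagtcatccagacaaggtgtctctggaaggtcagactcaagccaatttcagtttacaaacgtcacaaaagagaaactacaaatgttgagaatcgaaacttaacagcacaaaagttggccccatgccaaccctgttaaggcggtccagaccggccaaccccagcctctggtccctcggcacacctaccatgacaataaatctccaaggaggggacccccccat

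The Isg15 window held 3 overlapping matches, whose first bases lie at -78, -72 and -66 relative to the start, and the Ifit1 window held matches at -104 and -85. Bst2 had overlapping matches at -130 and -124, Rsad2 had 1 at -120 and Ifitm2 had 1 at -46. Ifitm3 and Oasl1 had none in their windows. Among the results that follow, Rsad2, with a match, and Oasl1, without one, were highest in the same cell class. The neighbouring genes Ifitm2, with a match, and Ifitm3, without one, were both low in B lineage-like cells. These pairs were picked from the windows shown, and a relation between match and cell class was not tested.

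Cells were assigned to classes by the share of their UMIs from fixed marker genes, and the names mean only that those markers were present. The shares at which a cell entered a class were set after the marker distributions of these data had been seen. The coculture library held 865 B lineage-like, 435 eosinophil-like, 382 basophil or mast cell-like, 379 neutrophil-like, 233 mature dendritic cell-like, 94 T or NK cell-like, 108 megakaryocyte-like (or platelet-like), 85 granulocyte-monocyte progenitor-like, 31 macrophage-gated and 26 dendritic cell-gated cells. The no coculture library held 860 neutrophil-like, 518 macrophage-like and 31 dendritic cell-gated cells, with at most 6 cells in any other named class. Another 168 cells with coculture and 158 without were left between gates, and 199 and 241 passed no gate. These cells were not ranked as classes. A class cut from such a share is a range, and 53 coculture cells and 101 no coculture cells lay within 1.2 times a cut.

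In the coculture library the members did not peak in 1 cell type. Of the 31, 6 were highest in mature dendritic cell-like cells, 11 in T or NK cell-like cells, 4 in B lineage-like cells, 4 in macrophage-gated cells and 1 each in dendritic cell-gated, megakaryocyte-like and progenitor-like cells, while Ifi44, Ifi205 and Ifi211 had no UMI in any of these classes. The highest class stood above the second beyond counting error for 9 members: Irf1, Mx1, Oasl1, Rsad2 and Bst2 in mature dendritic cell-like cells, Zbp1 and Xaf1 in T or NK cell-like cells, Ifi27l2a in B lineage-like cells and Ifitm3 in macrophage-gated cells. These were 9 of the 28 members with a UMI in these classes, against 21.1% of all such genes; among genes at 10 CPM or more in the library they were 5 of 12, against 35.1%. The 94 T or NK cell-like cells held only 189568 UMIs, so that a member could rank highest there on very few UMIs. Zbp1, a sensor of Z-form nucleic acid that can trigger necroptosis, reached 63.3 CPM there on 12 UMIs, and Xaf1, a pro-apoptotic protein, 36.9 CPM on 7 UMIs.

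**Figure D1:**
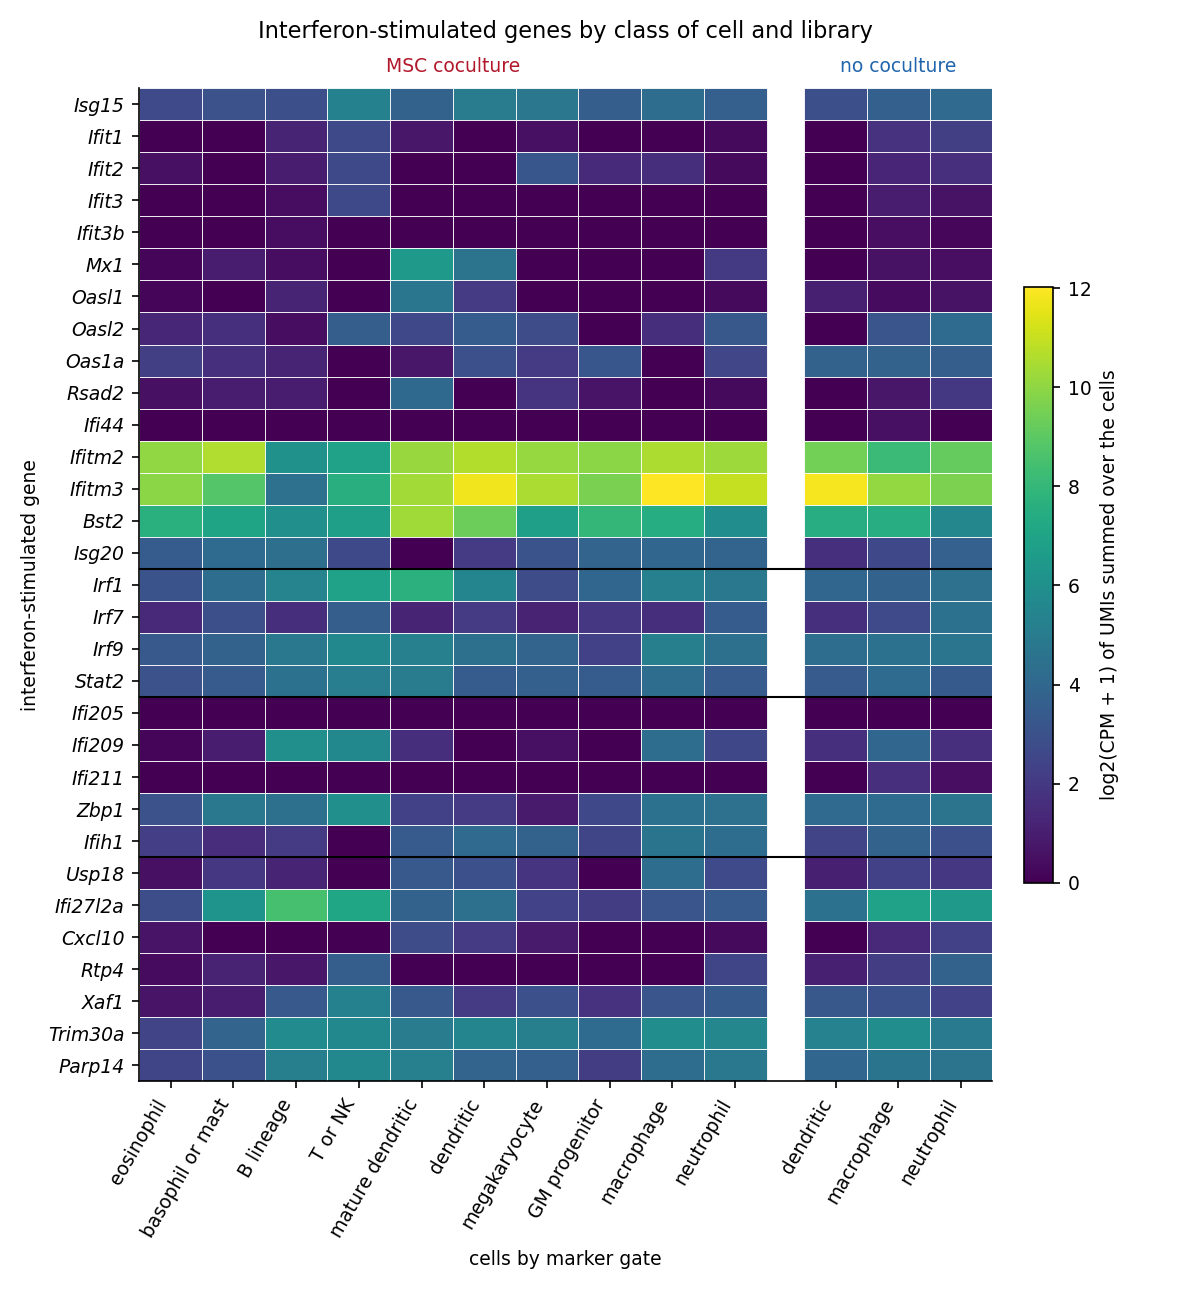
Level of each of the 31 members as log2(CPM + 1), in the 10 cell classes of the coculture library on the left and the 3 classes of the no coculture library on the right, with rows grouped by role. Mx1, Oasl1 and Rsad2 stand out in mature dendritic cell-like cells, Ifi27l2a in B lineage-like cells, and Ifitm2 and Ifitm3 in the myeloid classes, with low values in both lymphoid classes.

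Mature dendritic cells are migratory dendritic cells that carry Ccr7 and present antigen to T cells. These 233 cells, 7.75% of the coculture cells, held 5.33% of its UMIs and 68.8% of its Mx1 UMIs. Mx1, a dynamin-like GTPase that blocks influenza virus replication and is disrupted by a deletion in most inbred laboratory mice, reached 89.6 CPM (139 UMIs, interval 75.3 to 106), against 23.1 CPM in dendritic cell-gated cells, 2.97 CPM in neutrophil-like cells and 0.323 CPM in B lineage-like cells. Those 139 UMIs came from 73 cells, the richest holding 13, so no single cell set the level. Eosinophil-like cells had 0.135 CPM of Mx1, and megakaryocyte-like, progenitor-like, macrophage-gated and T or NK cell-like cells had no Mx1 UMI, which allows up to 1.24, 1.68, 6.02 and 15.8 CPM in that order.

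The other members of this group had smaller counts. Oasl1, an oligoadenylate synthetase-like protein that limits Irf7 translation in mice, had 40 UMIs in mature dendritic cell-like cells, 75.5% of its coculture UMIs and 25.8 CPM. Rsad2, or viperin, a radical enzyme that interferes with viral replication, had 24 UMIs there, 50% of its total and 15.5 CPM, with megakaryocyte-like cells next at 2.48 CPM. Cxcl10, a chemokine for Cxcr3-bearing lymphocytes, was also highest there at 5.80 CPM, but on 9 UMIs.

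Irf1 and Bst2 were widely present and highest in the same cells. Irf1, a transcription factor induced mainly by interferon gamma, had 206 CPM in mature dendritic cell-like cells (319 UMIs, interval 184 to 230), 121 CPM in T or NK cell-like cells, 42.0 CPM in B lineage-like cells, 27.3 CPM in neutrophil-like cells and 7.55 CPM in eosinophil-like cells. Bst2, or tetherin, which holds budding virions at the cell surface, had 1254 CPM (1945 UMIs, interval 1199 to 1311), 638 CPM in dendritic cell-gated cells, 245 CPM in progenitor-like cells and 56.0 CPM in neutrophil-like cells. Bst2 is also a surface marker of mouse plasmacytoid dendritic cells, whose defining gene Siglech had 0 UMIs in both libraries; the 6 plasmacytoid markers together came to 84.5 CPM with coculture and 44.1 CPM without. Thinned shares leave out the cells with fewer than 2000 UMIs, 265 with coculture and 140 without, which the unthinned shares include. With cells thinned to 2000 UMIs, 81.1% of mature dendritic cell-like cells held a Bst2 UMI (92.3% unthinned), 31.5% an Irf1 UMI (60.1%) and 11.3% an Mx1 UMI (31.3%). B lineage-like cells gave thinned shares of 12.1% for Bst2 (18.8% unthinned) and 8.63% for Irf1 (13.2%), and no thinned B lineage-like cell held an Mx1 UMI.

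Isg20, an exonuclease that degrades viral RNA, ran the other way. It had no UMI in mature dendritic cell-like cells, which allows up to 1.93 CPM, against 19.4 CPM in B lineage-like, 17.1 CPM in basophil or mast cell-like and 13.1 CPM in neutrophil-like cells.

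**Figure D2:**
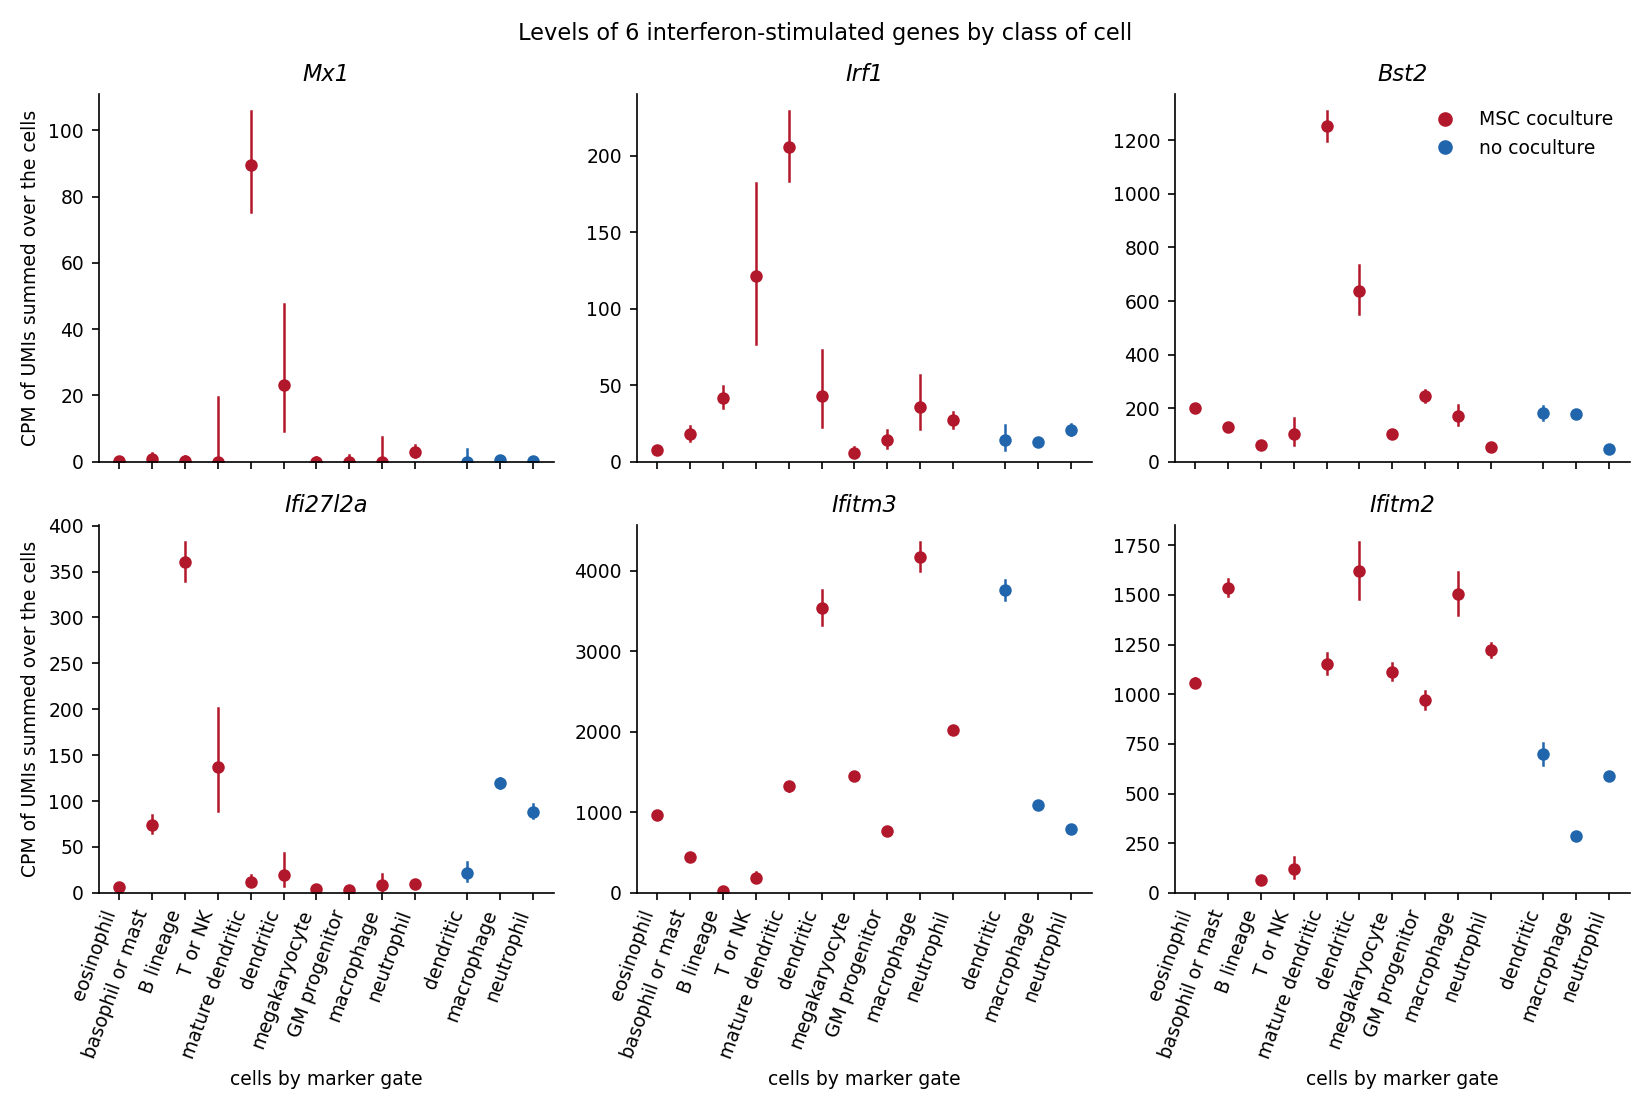
CPM of Mx1, Irf1, Bst2, Ifi27l2a, Ifitm3 and Ifitm2 in each class, with 95% counting intervals, coculture classes in red on the left and no coculture classes in blue on the right. Mature dendritic cell-like cells hold the highest Mx1 (89.6 CPM), Irf1 (206 CPM) and Bst2 (1254 CPM), and B lineage-like cells the highest Ifi27l2a (360 CPM) and the lowest Ifitm2 and Ifitm3. Without the richest cell of each class, Ifitm2 was lower in T or NK cell-like cells (44.1 CPM) than in B lineage-like cells (62.4 CPM).

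B lineage-like cells carried a different pair. Ifi27l2a, which encodes a small protein of the ISG12 family, had 360 CPM there (1115 UMIs, interval 339 to 382), 66.3% of its UMIs in the library. T or NK cell-like cells followed at 137 CPM and basophil or mast cell-like cells at 74.3 CPM, while mature dendritic cell-like cells had 12.3 CPM and neutrophil-like cells 9.66 CPM. Ifi209, of the PYHIN family of DNA-binding proteins, had 63.3 CPM in B lineage-like cells (196 UMIs, 75.7% of its total) and 47.5 CPM on 9 UMIs in T or NK cell-like cells, which do not differ beyond counting error. Ifi209 shares 63.4% of the 50-base words in its last 500 bases with Ifi214, so its level is uncertain.

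The membrane proteins Ifitm2 and Ifitm3, which block the fusion of incoming virus, were lowest in the lymphoid classes. Ifitm3 stood at 21.01 CPM in B lineage-like cells and 190 CPM in T or NK cell-like cells, against 441 CPM in basophil or mast cell-like cells and 4173 CPM in macrophage-gated cells, with the other classes in between. Thinned to 2000 UMIs, 2.56% of B lineage-like cells held an Ifitm3 UMI (3.70% unthinned), against 44.8% of basophil or mast cell-like cells (72.0%) and 78.8% of neutrophil-like cells (88.4%). Ifitm2 had 65.6 CPM in B lineage-like cells, 121 CPM in T or NK cell-like cells and 971 CPM or more in each other class. Among T or NK cell-like cells, each gene's richest cell held 15 of the 23 Ifitm2 UMIs and 26 of the 36 Ifitm3 UMIs. Without each gene's richest cell, this class had 44.1 CPM of Ifitm2 and 55.1 CPM of Ifitm3. B lineage-like cells then had 62.4 and 14.6 CPM, so for Ifitm2 the order of the lymphoid classes depended on the richest cell.

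Megakaryocyte-like cells held 20 of the 33 coculture UMIs of Ifit2, which binds viral RNA, at 8.26 CPM. They had 26.0 CPM of Isg15, a ubiquitin-like protein attached to other proteins, on 63 UMIs. T or NK cell-like cells were higher for Isg15, at 36.9 CPM, but on 7 UMIs.

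Without coculture only 3 classes had enough cells to be ranked, against 10 with coculture, so the rankings of the libraries cannot be compared directly. Of the 31 members, 12 were highest in neutrophil-like cells, 12 in macrophage-like cells and 6 in dendritic cell-gated cells, and 15 stood above the second class beyond counting error. That was 15 of 30 with a UMI, against 28% of all such genes, and 9 of 15 at 10 CPM or more in the library, against 49.7%. Neutrophil-like cells were highest for Isg15, Irf7, Oasl2, Rsad2, Cxcl10, Rtp4, Zbp1 and Isg20 by this measure. Cells outside the ranked classes could be higher: Oasl2 had 16.7 CPM in neutrophil-like cells and 20.8 CPM in cells past no gate. Cells between gates held 80 of the 135 Cxcl10 UMIs, 77 of them in 1 cell. For Rsad2 the neutrophil-like level of 2.90 CPM was 1.19 CPM without the signature-rich cells described below, and for Cxcl10 3.92 CPM was 2.22 CPM without the richest cell. Irf7, the factor that amplifies type I interferon production, had 22.1 CPM in neutrophil-like, 5.52 CPM in macrophage-like and 2.15 CPM in dendritic cell-gated cells, and 1 cell held 37 of the 81 macrophage-like UMIs, without which the level was 3.00 CPM. Macrophage-like cells were highest for Ifi209, Ifi211, Ifi27l2a, Ifih1 and Trim30a, with Ifi27l2a at 119.6 CPM against 88.6 CPM in neutrophil-like cells. Ifi209 and Ifi211 share 63.4% and 77.4% of the 50-base words in their last 500 bases with other genes. Their place is therefore uncertain, and Ifi211 had only 30 UMIs in macrophage-like cells and 2 in neutrophil-like cells. Dendritic cell-gated cells were highest for Ifitm2 and Ifitm3, with Ifitm3 at 3763 CPM against 1094 CPM in macrophage-like cells.

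Summed over all kept cells, 16 members had at least 10 CPM in either library. Of these, 1 was at least 2-fold higher with coculture, against 12.7% of the 8668 genes measured so, and 2 were at least 2-fold lower, against 11.7%. The median log2 ratio was -0.36 over the 16 members and 0.03 over all 8668 genes. These sums mix unlike cells: the neutrophil markers totalled 14117 CPM with coculture and 46633 without, the macrophage markers 1237 and 29761, the B lineage markers 1151 and 8.03, and the mature dendritic cell markers 554 and 32.2. Fewer cells of a type and less RNA per cell cannot be told apart in such sums.

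Among the 15 antiviral effectors, Ifitm2 was the member that was higher, at 1041 CPM with coculture and 384 CPM without (log2 ratio 1.44, interval 1.41 to 1.47). It shares 41.9% of the 50-base words in its last 500 bases with predicted genes such as Gm45717 and Gm11951, so its level is uncertain. Ifitm3 had 1189 CPM with coculture and 1199 CPM without (log2 ratio -0.01, interval -0.03 to 0.01). Ifitm1, the neighbouring family member that was not in the set, had 11807 CPM with coculture and 1261 CPM without.

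Oasl2 and Oas1a, of the oligoadenylate synthetase family whose products activate RNase L, were the members that were lower. Oasl2 had 3.06 CPM with coculture and 10.7 CPM without (log2 ratio -1.81, interval -2.17 to -1.46), and Oas1a had 3.44 and 12.2 CPM (log2 ratio -1.82, interval -2.16 to -1.50). Oas1a shares 56.1% of its end words with Oas1g. Bst2 had 216 CPM with coculture and 147 CPM without (log2 ratio 0.55), which falls to 0.10 when mature dendritic cell-like cells are left out. Isg15 had 10.5 and 12.96 CPM (log2 ratio -0.31, interval -0.53 to -0.08) and Isg20 12.03 and 6.44 CPM (log2 ratio 0.90, interval 0.64 to 1.17).

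The remaining effectors stayed below 10 CPM in both libraries. Mx1 had 202 UMIs with coculture and 24 without, of which 139 coculture UMIs lay in the mature dendritic cell-like cells described above. Ifit1 had 9 UMIs with coculture and 73 without, Ifit3 had 2 and 21, Ifit3b had 1 and 8, Ifit2 had 33 and 42, Rsad2 had 48 and 29, Oasl1 had 53 and 13, and Ifi44 had 2 and 8.

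None of the 4 transcription factors reached both 10 CPM and 2-fold in these sums. Irf1 had 30.5 CPM with coculture and 15.5 CPM without (log2 ratio 0.97, interval 0.80 to 1.14), and 0.41 without the mature dendritic cell-like cells. Irf9 had 16.3 and 22.6 CPM (-0.48) and Stat2 12.4 and 15.3 CPM (-0.30). Irf7, below 10 CPM in both, had 117 UMIs with coculture and 259 without (log2 ratio -1.21, interval -1.54 to -0.89).

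The nucleic acid sensors Ifih1, Zbp1 and Ifi209 had 7.77, 13.2 and 8.90 CPM with coculture and 10.4, 18.4 and 10.2 CPM without. Ifih1, or MDA5, senses long double-stranded RNA. The log2 ratio of Ifi209 was -0.19 over all cells and -2.07 without the B lineage-like cells. Ifi205, with 2 UMIs and 0, and Ifi211, with 2 UMIs and 37, share 79.2% and 77.4% of their end words with each other or with Mndal and are not read further.

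Of the other induced genes, Ifi27l2a had 57.9 CPM with coculture and 102 CPM without (log2 ratio -0.82, interval -0.91 to -0.73), and -2.22 without B lineage-like cells. Trim30a, a ubiquitin ligase-type regulator of Toll-like receptor signalling, had 26.0 and 49.8 CPM (-0.94), and Parp14, an ADP-ribosyltransferase, 15.3 and 23.6 CPM (-0.63). Usp18, which removes Isg15 from proteins and damps receptor signalling, had 95 UMIs and 98, and Xaf1 had 146 and 170. Rtp4, a receptor-transport protein, had 33 UMIs with coculture and 150 without (log2 ratio -2.25, interval -2.84 to -1.70). Cxcl10 had 22 UMIs and 135, but 77 of the 135 lay in 1 cell.

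**Figure D3:**
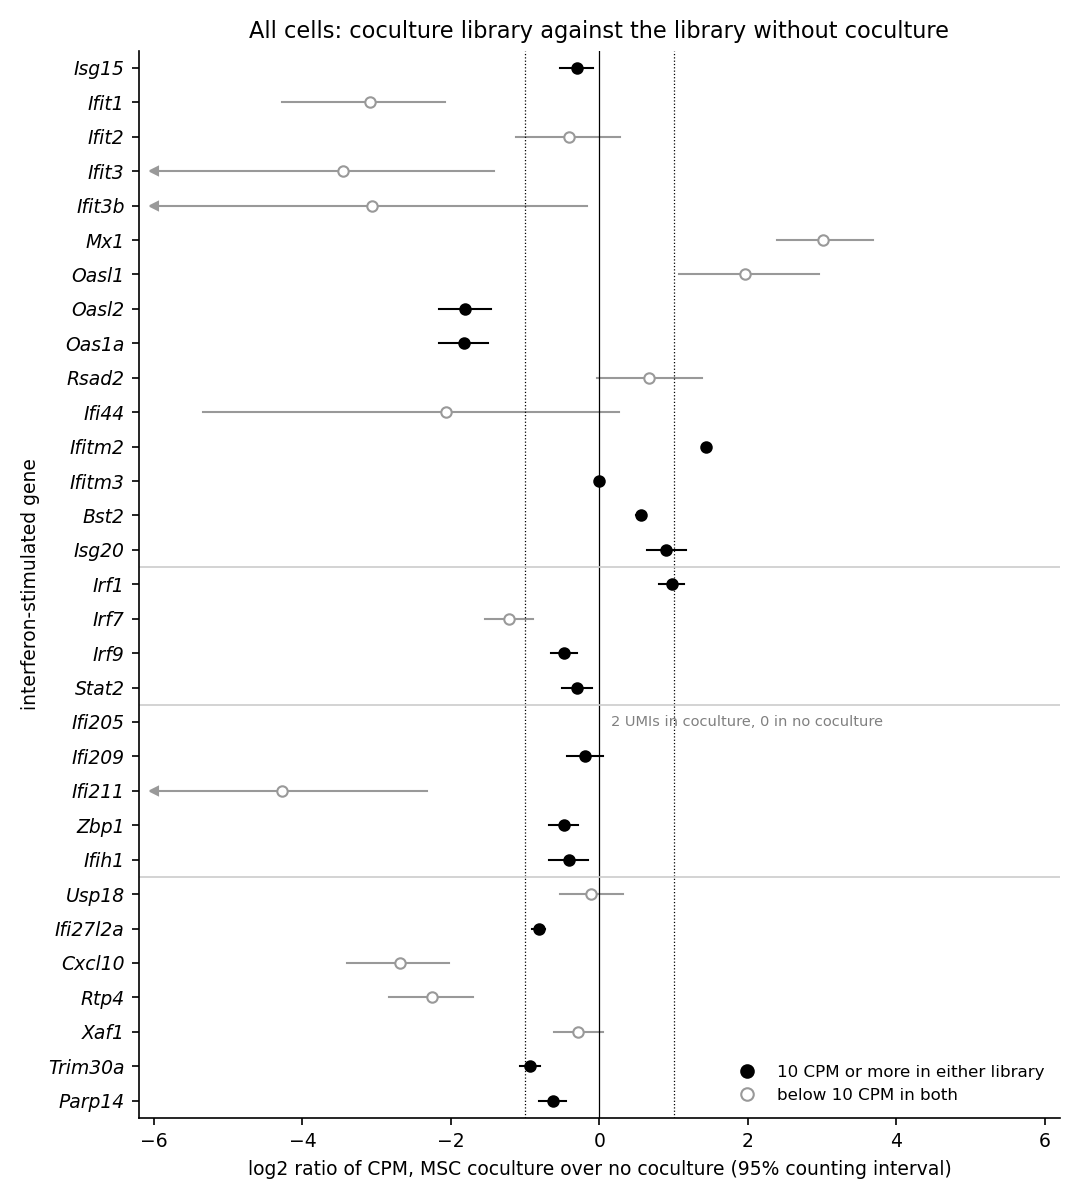
Log2 ratio of each member, coculture over no coculture, over all kept cells with 95% counting intervals. Filled points have at least 10 CPM in either library and open grey points do not, dotted lines mark 2-fold, and arrows mark intervals cut at the edge. Ifitm2 lies past 2-fold above, and Oasl2 and Oas1a past 2-fold below, among the filled points.

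The neutrophil, macrophage and dendritic cell gates each held at least 20 cells in both libraries. Coculture cells past the macrophage and dendritic cell gates lay mostly in clusters named for other classes. Neutrophil-like cells alone were compared by name, though with a limit of their own. The 379 coculture and 860 no coculture cells lay mostly in different clusters: 337 coculture cells in a cluster led by Arg1, Cxcl3, Nos2 and Retnlg, and the no coculture cells in clusters led by Asprv1 and Hp (421 cells), Slfn1 and Lilra6 (246) and Ltf, Camp and Ngp (172). Of 16 members measured, 3 were at least 2-fold higher with coculture (background 9.45%) and 4 at least 2-fold lower (background 5.68%), with a median log2 ratio of -0.02 against 0.02 over 7559 genes.

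The 3 higher members were Ifitm3, Ifitm2 and Ifih1. Ifitm3 had 2020 CPM with coculture and 798 CPM without (log2 ratio 1.34, interval 1.29 to 1.39), Ifitm2 1223 and 588 CPM (1.06, interval 0.99 to 1.12) and Ifih1 17.8 and 6.64 CPM (1.43, interval 0.84 to 2.03). Ifitm2 falls just under 2-fold with TMM scaling.

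The 4 lower members were Ifi27l2a, Rtp4, Oas1a and Irf7. Ifi27l2a had 9.66 CPM with coculture and 88.6 CPM without (log2 ratio -3.20, interval -3.70 to -2.73), from 39 and 520 UMIs. Rtp4 had 18 UMIs and 75 (-1.52, interval -2.35 to -0.76), Oas1a 19 and 63 (-1.19, interval -2.01 to -0.43) and Irf7 40 and 130 (-1.16, interval -1.71 to -0.64). With the gate shares doubled, Ifi27l2a was the 1 member of these 4 past 2-fold, at -2.52. Isg15, with 11.2 CPM with coculture and 16.0 CPM without, and Trim30a, with 45.8 and 29.3 CPM, were among the 9 members between the limits. So was Oasl2, with 35 UMIs with coculture and 98 without (-0.94, interval -1.55 to -0.37).

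**Figure D4:**
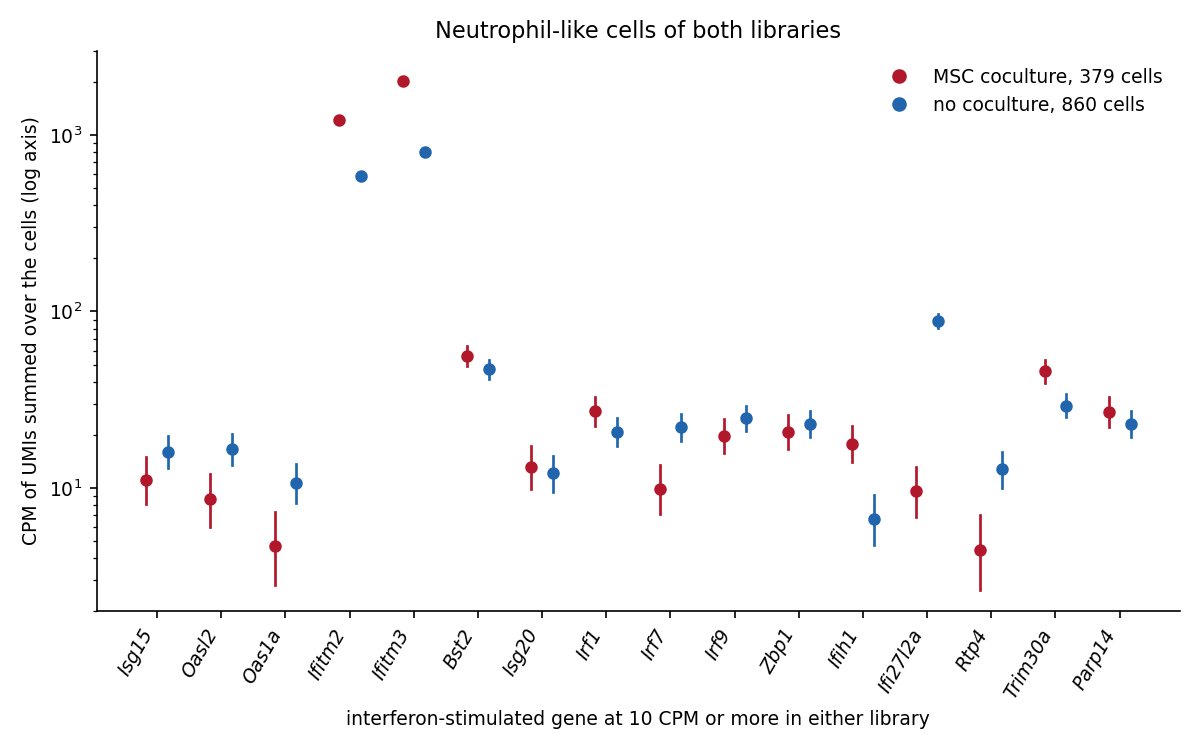
CPM on a log axis of the 16 members measured in neutrophil-like cells, 379 with coculture and 860 without, with 95% counting intervals. Ifitm3, Ifitm2 and Ifih1 were at least 2-fold higher and Ifi27l2a, Rtp4, Oas1a and Irf7 at least 2-fold lower with coculture.

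Neutrophil-like cells rich in the granule genes Ltf, Camp and Ngp numbered 29 with coculture and 131 without. In them Ifi27l2a had 0 UMIs and 35, and Irf7 2 and 29. Of 13 members measured, 2 were higher (background 12.6%) and 2 lower (background 10.6%), the higher being Isg20 (log2 ratio 1.43, interval -0.10 to 2.81) and Ifih1 (1.15, interval -0.69 to 2.73). Of these calls the interval excluded no difference for Ifi27l2a alone, and without each gene's richest cell 1 member was higher and 0 lower. The median over all genes moved by -0.27 under that omission, and the share of all genes past 2-fold is not given for it. In the other 350 and 729 cells, 3 of 17 were higher (background 9.32%) and 5 lower (background 7.82%), with Ifi27l2a at -3.53 and Ifitm3 at 1.64.

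Cluster 13, led by Asgr2, Ptx3, Ccl4 and Ccl24, was the other group found in both libraries, with 39 cells with coculture and 77 without. It was chosen after the data were seen, because the coculture cells past the macrophage and dendritic cell gates lay mostly in clusters named for other classes. Its makeup differed: 19 of its coculture cells were macrophage-gated and 5 dendritic cell-gated, against 14 macrophage-gated and 26 dendritic cell-gated cells without coculture. Of 17 members measured, 7 were at least 2-fold higher (background 18.2%) and 2 lower (background 9.89%), with a median log2 ratio of 0.63 against 0.14 over 8263 genes. The interval excluded no difference for 5 of the 7, and included it for Usp18 (-0.58 to 2.76) and Stat2 (-0.05 to 2.00). The counts were small: Irf1 had 37.2 CPM with coculture and 17.1 CPM without (1.12, interval 0.27 to 1.94), Ifih1 had 12 UMIs and 12 (1.90, interval 0.61 to 3.18) and Isg20 8 UMIs and 2. The lower members were Oas1a, with 0 UMIs with coculture and 36 without, and Cxcl10, with 0 and 78. Of those 78 Cxcl10 UMIs, 77 lay in 1 cell, and without each gene's richest cell 4 members were higher and 1 lower. The median over all genes moved by -0.15 under that omission, and the share of all genes past 2-fold is not given for it. TMM scaling, which lowers the median of all genes here by 0.21, left 3 members higher, against 13.8% of all genes under that scaling.

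A signature of 15 members (Isg15, Ifit1, Ifit2, Ifit3, Ifit3b, Irf7, Mx1, Oasl1, Oasl2, Oas1a, Rsad2, Usp18, Ifi44, Cxcl10 and Rtp4), chosen with the data in view, was then counted cell by cell. It totalled 38.2 CPM with coculture and 66.8 CPM without, and 76.0% of coculture cells and 56.0% of no coculture cells held none of it. These shares were not thinned, and median depth was 2825 UMIs in B lineage-like cells with coculture and 22401.5 in macrophage-like cells without. The part of depth in this gap was not tested. No coculture cell had more than 4 of the genes. Without coculture 5 of 1817 cells (0.275%) had 6 or more, the highest having 13. With coculture 0 of 3005 cells did, with an interval up to 0.123%.

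Those 5 cells held 167 of the 1856 signature UMIs (8.998%) with 0.347% of all UMIs. The cells were picked by these same genes, so the larger share of signature UMIs follows from the choice. The 5 cells were 2 macrophage-like and 3 neutrophil-like cells. The richest, a macrophage-like cell of 15904 UMIs, had 78 signature UMIs, 37 of them Irf7. A neutrophil-like cell of 1042 UMIs had 13 signature UMIs from 6 genes, and the deepest of the 5 had 68714 UMIs. The cell with 77 Cxcl10 UMIs was another, of 35916 UMIs, and carried only 3 signature genes.

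By class the signature stood at 166 CPM in mature dendritic cell-like cells (interval 147 to 188), 85.9 CPM in dendritic cell-gated cells, 84.4 CPM in T or NK cell-like cells, 48.6 CPM in neutrophil-like cells, 17.5 CPM in B lineage-like cells and 14.6 CPM in eosinophil-like cells of the coculture library. Without coculture it stood at 95.2 CPM in neutrophil-like cells, 53.3 CPM in macrophage-like cells and 24.7 CPM in dendritic cell-gated cells. Of the 258 signature UMIs in mature dendritic cell-like cells, 139 were Mx1, 40 Oasl1 and 24 Rsad2.

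**Figure D5:**
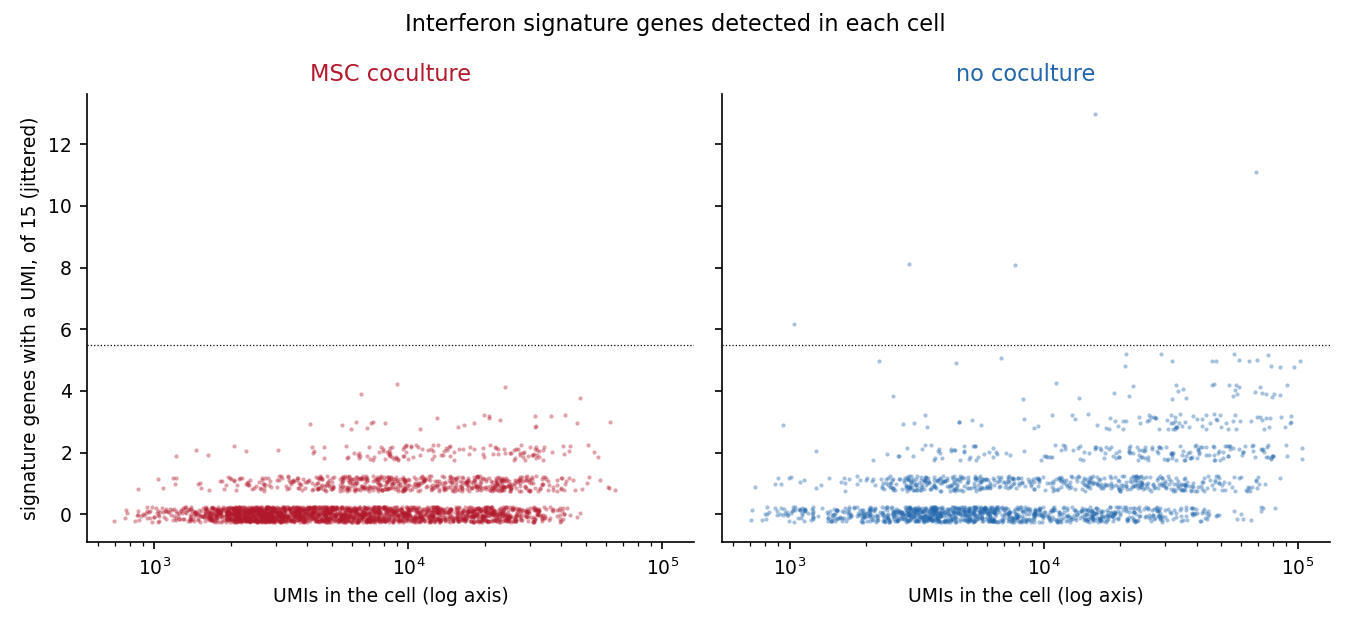
Number of the 15 signature genes with a UMI in each cell against the UMIs of that cell, coculture on the left and no coculture on the right. The dotted line separates cells with 6 or more genes, of which there were 0 with coculture and 5 without, from 1042 UMIs upward.

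The share of cells with a UMI depends on depth. Thinned to 2000 UMIs, 1.39% of coculture cells and 0.0596% of no coculture cells held an Mx1 UMI, 7.52% and 3.76% an Irf1 UMI, and 59.8% and 46.7% an Ifitm2 UMI. The interval of that Mx1 share without coculture was 0.0015% to 0.332%, over 1677 cells. Thinned shares for Isg15 were 1.93% and 2.39%, against 8.72% and 14.8% unthinned.

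The rest of the pathway was followed with lists of genes drawn up with earlier results of these data known. Of 10 interferon genes, Ifng had 27 UMIs with coculture, highest in B lineage-like cells at 7.76 CPM, and 0 without. T or NK cell-like cells held so few UMIs that a count of 0 there allows up to 15.8 CPM. For Ifng, B lineage-like cells therefore cannot be ranked above T or NK cell-like cells. The other 9 interferon genes had 0 UMIs in both libraries. Of 6 receptor genes, 5 were measured, 0 were higher (12.7% of all measured genes) and 2 lower (11.7%): Ifngr2, a chain of the interferon gamma receptor, had 50.8 CPM with coculture and 102 CPM without, and Il10rb, shared with the interferon lambda receptor, 32.8 and 66.2 CPM. Ifnar1 had 26.1 and 35.7 CPM, Ifnar2 37.1 and 42.4 CPM and Ifngr1 115 and 120.5 CPM, and Ifnlr1 had 32 UMIs with coculture and 51 without.

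Of 10 kinases, STATs and IRFs, all measured, 1 was higher (12.7% of all measured genes) and 3 lower (11.7%). Irf8, a factor that directs dendritic cell and monocyte formation, had 245 CPM with coculture and 115 CPM without and reached 2344 CPM in mature dendritic cell-like cells. Irf5 had 49.1 CPM with coculture and 136 CPM without, and Irf4 14.6 and 31.9 CPM. Of 12 sensors and adaptors, 10 were measured, 0 were higher and 4 lower against the same 12.7% and 11.7%, led by the endosomal RNA receptor Tlr7 at 3.51 CPM with coculture and 25.3 CPM without. Tmem173, which encodes STING, had 21.3 and 56.1 CPM, and the adaptor Myd88 26.4 and 68.3 CPM. Of 6 pathway inhibitors 0 were higher and 2 lower, again against 12.7% and 11.7%. The lower ones were the phosphatase Ptpn6 (-1.17) and Irf2bp2 (-1.02), and Ptpn2, another phosphatase, had a log2 ratio of 0.81.

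Of 61 further interferon-induced genes, 38 were measured, 5 were higher (12.7% of all measured genes) and 8 lower (11.7%), with a median log2 ratio of -0.27. In the coculture library 11 of the 38 were highest in mature dendritic cell-like cells, against 13% of all measured genes. The largest differences were Ms4a4c (4.42), Ifi204 (-3.90) and Ifi207 (-3.59), of which the last pair belongs to the PYHIN family. Of 17 GTPase and chemokine genes of the interferon gamma response, 4 were measured and 0 passed 2-fold in either direction, with a median of -0.02. Irgm1 had a log2 ratio of -0.62, Ifi47 of 0.61 and Gbp7 of -0.44.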

How the data were processed

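The deposited matrices hold whole-number UMI counts per gene and barcode from 10x 3′ libraries, with software version 3.1.0 per the file headers. Cell Ranger, bcl2fastq and mm10 are named per the submitters' processing notes. Cells needed 500 genes or more and no more than 10% of UMIs from mitochondrial genes. Cells entered 1 of 10 classes by their share of UMIs from marker genes, taken as a multiple of the cut of each gate. The largest multiple set the class. Cells past a second gate, at 0.5 or more of that largest multiple, were left between gates. No doublet caller was run, and none were removed. Counts were summed per class and given as CPM with exact 95% Poisson intervals, and log2 ratios with exact conditional binomial intervals. Shares have Clopper-Pearson intervals. A gene was measured at 10 CPM in either library and called past 2-fold. A count of 0 allows 3 UMIs. Clusters came from Leiden clustering (resolution 0.8, 2000 variable genes, 30 components, 15 neighbours) without members and list genes. Members, lists and class cuts were chosen with earlier results of these data known. Members at 10 CPM or more were named with values, and of each pathway list the 3 largest log2 ratios and the interferon and receptor genes, with a gene of that rule not reported here; further genes were named after their values were seen. Copies were counted as 50-base words in the last 500 bases of GENCODE transcripts. Alternatives were other cell, gate and level limits, scalings, folds and class omissions. Scripts were tested on simulated data. Tools were Python 3.11.15, scipy 1.17.1, scanpy 1.11.5, igraph 0.11.9, R 4.3.3, edgeR 4.0.16 (TMM factors) and DESeq2 1.42.0 (size factors).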

Additional observations from a re-analysis of the deposited data

How the results depend on the processing

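Single members were followed under the alternatives over all cells and in neutrophil-like cells, with 16 members measured in each. No member called past 2-fold there changed sign. Signs in the granule-rich cells, the other neutrophil-like cells and cluster 13 are not covered by this. Among uncalled members, Ifi209 over all cells went to 1.94 with the mean of per-cell CPM, and Bst2 in neutrophil-like cells to -0.32 with gates doubled. Of 320 alternative values of single members 275 stayed within their counting error and 45 did not. The counts that follow carry no share of all genes under the same setting here, so they are not read as results about the members. The median of all genes moved too, by 0.14 over all cells with a 10-UMI minimum. Without each gene's richest cell it moved by -0.27 in granule-rich cells and -0.15 in cluster 13. Over all cells, the 1 member higher became 2 without the 5% of cells with most UMIs, 4 with the mean of per-cell CPM, 3 with a 10-UMI minimum, 3 at 1.5-fold and 0 at 4-fold. The 2 members lower became 5 without B lineage-like cells, 0 at 50 CPM, 9 with a 10-UMI minimum, 5 at 1.5-fold and 0 at 4-fold. Trim30a also passed 2-fold lower over all cells with TMM and with DESeq2 factors. In neutrophil-like cells, the 3 higher became 0 at 4-fold and the 4 lower became 1 with gates doubled and 1 at 4-fold. Oasl2, between the limits there at -0.94, passed 2-fold lower in 4 alternatives. These were gates halved, Leiden clusters, TMM factors and the omission of each gene's richest cell. In granule-rich cells, the 2 higher became 5 at 1.5-fold and 0 at 4-fold, and the 2 lower became 1 with Leiden clusters and 0 at 4-fold; without each gene's richest cell they became 1 and 0. In the other neutrophil-like cells, the 3 higher became 0 at 4-fold, and the 5 lower became 2 with gates doubled and 2 at 4-fold. In cluster 13, the 7 higher became 3 with TMM and 2 at 4-fold, and the 2 lower became 1 at 4-fold; without each gene's richest cell they became 4 and 1. The 11 members highest in T or NK cell-like cells became 7 with the mean of per-cell CPM. Ifitm2 was highest in basophil or mast cell-like cells in all 4 alternatives. With Leiden clusters the cluster named macrophage held 1 coculture cell and was not ranked. The 4 macrophage-gated members, Ifitm3 included, could therefore only be highest in other classes there. Unthinned shares of cells with coculture and without were 8.72% and 14.8% for Isg15, 67.2% and 73.1% for Ifitm2, 58.0% and 70.1% for Ifitm3 and 48.4% and 46.5% for Bst2. TMM and DESeq2 factors moved the median of all genes by -0.14 and -0.12. Where a count moved with a class left out or a stricter limit, the cause was not tested. The omissions of a class, of signature-rich cells or, within a class, of richest cells, the granule-rich split and cluster 13 were chosen after seeing the data. No paired analysis was possible because each condition has 1 library. Below 10 CPM, and in the classes of 26 to 94 cells, single UMIs set a member's order.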

Other observations

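Ifitm2, Ifitm3 and Bst2 together gave 90.9% of all member UMIs with coculture and 83.2% without, and the other 28 members together came to 244 CPM with coculture and 349 CPM without. Within the coculture library, those 3 genes gave 18.1% of member UMIs in B lineage-like cells, 38.3% in T or NK cell-like cells and 96.8% in eosinophil-like cells. The other 28 members came to 672 CPM in B lineage-like cells, 542 CPM in mature dendritic cell-like cells and 74.3 CPM in eosinophil-like cells.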
